A study of Homo sapiens with 4 samples.

Results

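SK-MEL28, an established human malignant melanoma cell line, was exposed to 8 electric pulses of 100 μs at 1300 V/cm and a frequency of 1 Hz (ECT pulses, the kind used in electrochemotherapy), and its RNA was compared with RNA of untreated cells of the same line after 16 h of culture. The comparison rests on 2 of the 4 arrays of the series, ECT array 1 and ECT array 2. Each array held both RNAs, with the untreated cells labelled in Cy3 and the exposed cells in Cy5. The other 2 arrays held cells exposed to 8 longer pulses of 5 ms at 600 V/cm (EGT pulses, the kind used in electrogene therapy), again against untreated cells. Pulses were given to cells suspended in electroporation buffer. No drug or plasmid is described with the pulses, but cisplatin appears in the label of ECT array 2 (and of the EGT arrays) and not in that of ECT array 1, so the 2 ECT arrays may differ in treatment. The dyes were never swapped, and a dye effect and a response to pulses cannot be told apart. The labels do not say whether the 2 ECT arrays held RNA of separate cultures, and the p-values then measure only the spread between these arrays, which may be technical.

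Of 3048 oligonucleotides on the array, 1176 were measured on both ECT arrays, and 1008 of these carry a gene symbol, for 968 genes. Measured means that 2 or more spots of an array passed the quality limits, and 921 (78.3%) of the 1176 had at least 4 such spots on both. A further 302 were measured on ECT array 1 alone and 32 on ECT array 2 alone. The log2 ratio is the exposed signal over the untreated signal after normalization, so 0 means equal signal and 0.58 is a 1.5-fold higher one. The cell line was checked against melanocyte markers, and 11 of 12 of these genes were measured on both arrays, among them TYR, TYRP1, MLANA, MITF and SOX10, with Cy3 intensity on ECT array 1 of 31.2, 171, 23.0, 38.0 and 28.8 times the local background. Markers of other cells were measured too, with 6 of 6 myeloid, 6 of 8 epithelial, 6 of 8 fibroblast or endothelial and 4 of 11 lymphoid genes, so being measured does not set the melanocyte genes apart. Background-subtracted Cy3 on ECT array 1 summed to 24797 units over the 12 melanocyte oligonucleotides on the array and to 116408 over the 9 epithelial ones, measured or not. Whether these oligonucleotides bound their own genes was not tested.

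Strong electric fields open the plasma membrane for a short time. Ions and ATP leak out, calcium enters, and the membrane has to be resealed. Cells commonly answer such injury with the heat shock response, in which the factor HSF1 binds heat shock elements in the promoters of chaperone genes, and with a change in protein synthesis. Genes of ribosomal proteins and of several translation factors carry a run of pyrimidines at the very start of their mRNA (the 5′ TOP motif), through which their translation is controlled together. Genes of the G2 and M phases often carry CCAAT boxes in their promoters. Many also carry a cell cycle genes homology region (CHR), through which they are held silent outside those phases.

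The sequences behind these groups are printed here because 5 of the 11 oligonucleotides that passed the fold rule below belong to heat shock, ribosomal, elongation or G2/M genes (HSPA1B, RPL31, EEF1A1, CCNF and CDC25C). The heat shock, ribosomal protein, translation factor and G2/M lists held 17, 8, 8 and 9 of the 1176 oligonucleotides measured on both arrays. These lists were chosen with earlier results of these data known, so the count of 5 is no evidence for the groups. All are RefSeq sequences of GRCh38.p14, and the windows searched ran from 250 bases before to 50 after each annotated start. The first pair holds the core letters of a heat shock element, GAANNTTC (its own reverse complement, in capitals), which began at position −105 from the start of HSPA1B (chr6:31827607-31827666, + strand) and at −77 and −47 from 1 of 3 annotated starts of DNAJB1 (chr19:14518426-14518485, − strand). Of the 3 windows of DNAJB1, 2 held the letters, and 1 is printed.
HSPA1B: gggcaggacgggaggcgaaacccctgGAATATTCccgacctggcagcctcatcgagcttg
DNAJB1: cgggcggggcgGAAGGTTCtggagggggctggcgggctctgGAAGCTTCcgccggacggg
The letters occurred in 6.77% of 35116 windows and for 8.21% of 27305 genes, and for 5 of the 13 measured heat shock genes that had one (DNAJA1, DNAJB1, HSP90AB1, HSPA1B and SERPINH1). The second pair holds the CHR letters TTTGAA (in capitals, searched on both strands), at −85 from the start of CCNF (chr16:2429340-2429389, + strand) and at −30 from 1 of 4 annotated starts of CDC25C (chr5:138331807-138331856, − strand). Of the 4 windows of CDC25C, 2 held TTTGAA, and 1 is printed.
CCNF: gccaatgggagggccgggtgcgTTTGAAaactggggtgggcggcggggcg
CDC25C: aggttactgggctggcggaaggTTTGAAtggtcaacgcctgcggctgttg
TTTGAA occurred in 15.2% of the windows, for 18.2% of all genes and for 6 of 7 measured G2/M genes with a window, and CCAAT (both strands) in 34.6%, for 39.7% and for 7 of 7.

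The third set runs from position −18 to 12 around the annotated start, with the run of C and T that begins at the start in capitals. The genes lie at chr2:101002271-101002300 (+ strand, RPL31), chr9:19380225-19380254 (− strand, RPS6), chr11:75399500-75399529 (+ strand, RPS3), chr17:74203660-74203689 (+ strand, RPL38), chr6:73521021-73521050 (− strand, EEF1A1), chr13:45341172-45341201 (− strand, TPT1) and chr19:41860237-41860266 (+ strand, 1 of 2 annotated starts of RPS19).
RPL31: cccacaatccttcgcgctCTTCCTTTCCaa
RPS6: gctaagcggaagttggccCTCTTTTCCgtg
RPS3: tccgcccgcgagccacttCCTTTCCTTTCa
RPL38: ggaaacggaagtctcgttCTTTTTCgtcct
EEF1A1: gtagtcgccgtgaacgttCTTTTTCgcaac
TPT1: gggagcggctgagtcggcCTTTTCCgcccg
RPS19: ccgggaaaccccgtcgttCCCTTTCCCCTg
A C at the start followed by at least 4 more C or T stood in 4.07% of the windows, for 5.14% of all genes, for 5 of 6 measured ribosomal genes and for 2 of 6 measured translation factor genes with a window. A match is a description of the sequence, and none of these arrays measured binding or translation.

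The 2 arrays differed in brightness. The median ratio of Cy3 intensity to local background was 5.38 and 2.21, and that of Cy5 only 1.88 and 1.64. Of 12788 spots, 46.2% and 37.3% were kept. Before normalization the kept spots were dimmer in Cy5, with median log2 ratios of −1.51 for the first array and −0.72 for the second. Log2 ratios spread more on ECT array 1 (median absolute deviation 0.24, against 0.19), and 44 oligonucleotides were at least 1.5-fold higher and 89 lower there, against 9 and 18 on ECT array 2. Across the 1176 oligonucleotides, which are not independent replicates, the 2 arrays correlated with Pearson r = 0.40 (Spearman rho = 0.39). The arrays share the dye orientation and may share the untreated RNA. Between pulse types, ECT array 1 correlated at 0.31 with EGT array 1 and at 0.74 with EGT array 2. The values for ECT array 2 were 0.30 and 0.43. Once 4 spots with a local background over 1000 were dropped from EGT array 1, its values were 0.41 and 0.45. The ECT arrays then correlated no better with each other than with either EGT array.

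Most oligonucleotides gave log2 ratios near 0. The median of the mean log2 ratios was −0.02, and the 5th and 95th percentiles were −0.44 and 0.35. The sign was the same on both arrays for 755 (64.2%) and opposite for 421. The mean SD between the arrays was 0.17, a factor of 1.13. In limma, fitted to the 2 arrays with Benjamini-Hochberg adjustment over 1176 oligonucleotides, 0 (0%) passed an adjusted p of 0.05, and the smallest adjusted p was 0.291. At an unadjusted p under 0.05 there were 155 (13.2%), 63 higher (5.36%) and 92 lower (7.82%). This count of 0 depended on the processing. With no background correction 21 passed, with plain subtraction 23, with spots of at least 3 times background only 66, and with an intensity trend and robust prior 37. For a single oligonucleotide, the smallest two-sided exact permutation p that 2 arrays allow is 0.5.

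The fold rule asked for a change of 1.5-fold or more in one direction on both arrays, and 4 oligonucleotides (0.34%) were higher and 7 (0.595%) lower. With median centring in place of loess the split was 2 higher and 31 lower, and of the 11 the 7 lower ones stayed past the rule while HSPA1B, CCNF, CDC25C and VM_H300004381 fell short of it with their sign kept. In the reported setting no oligonucleotide was past 2-fold on both arrays, and only that of RPL31 had a 2-fold mean. RPL31 was past 2-fold on both arrays with no background correction (−1.97 and −1.17) and with subtraction (−2.40 and −1.28). It was so too in the deposited table of the authors' normalized ratios, at −1.90 and −1.13. Among the others, TBCA had a 2-fold mean in each of these settings, at −1.09, −1.21 and −1.08. Of 44 oligonucleotides whose mean was at least 1.5-fold in the reported setting, 32 passed on ECT array 1 alone, 1 on ECT array 2 alone and 11 on both. The plot of the 2 arrays against each other shows the 11 in opposite corners.

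**Figure D1:**
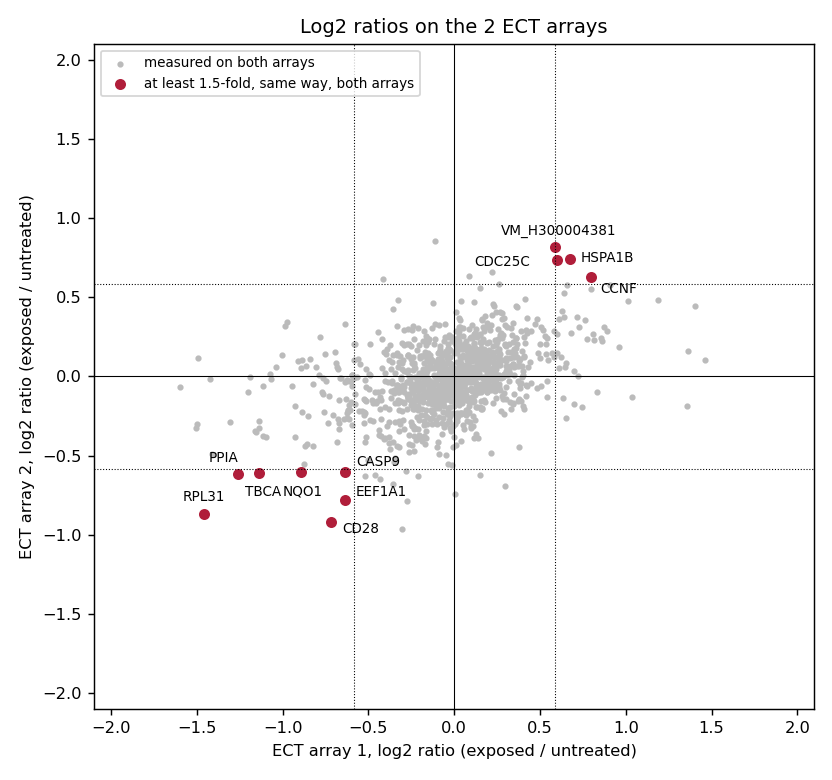
Log2 ratio (exposed over untreated) of each of 1176 oligonucleotides on ECT array 1 (x axis) and ECT array 2 (y axis), with dotted lines at 1.5-fold. The 4 higher and 7 lower oligonucleotides past the lines on both arrays are in red, and the cloud is wider along ECT array 1.

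HSPA1B encodes the inducible HSP70 chaperone that refolds damaged proteins. Its oligonucleotide VM_H200001719 (chromosome 6) gave log2 ratios of 0.67 on ECT array 1 and 0.74 on ECT array 2, a mean of 0.71 ± 0.05 (SD, n = 2, as for the other means below) or 1.63-fold. All 7 kept spots lay above 0, from 0.46 to 0.98. Its raw median intensity went from 253 (Cy3) to 169 (Cy5) on the first array and from 111 to 127 on the second. The second HSPA1B oligonucleotide, VM_H200017080, was also higher on both arrays, at 0.26 and 0.59. HSPA1A is nearly identical to HSPA1B, and the oligonucleotides may not tell them apart.

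The other higher ones include 2 cell cycle genes. CCNF, the cyclin F that acts in a ubiquitin ligase during G2, gave 0.80 and 0.63 (VM_H200000503, chromosome 16, mean 0.71 ± 0.12). Its 8 spots ranged from 0.51 to 1.15. CDC25C, the phosphatase that activates CDK1 at entry into mitosis, gave 0.60 and 0.73 (VM_H300022393, chromosome 5, mean 0.67 ± 0.09). Its 8 spots ranged more widely, from 0.25 to 1.05. The fourth, VM_H300004381, has no symbol and gave 0.59 and 0.82.

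Among the lower ones RPL31, of the large subunit of the ribosome, stood lowest. It gave −1.46 and −0.87 (VM_H200014243, chromosome 2, mean −1.16 ± 0.42, 95% interval −1.62 to −0.71, 2.24-fold), and its 8 spots ranged from −1.55 to −0.57. Cy5 there was only 2.64 and 5.39 times the background. EEF1A1, the elongation factor that brings tRNA to the ribosome, gave −0.64 and −0.78 (VM_H300020621, chromosome 6, mean −0.71 ± 0.10). Its 4 spots on ECT array 2 spread with an SD of 0.55. The second EEF1A1 oligonucleotide, VM_H300022640, gave 0.00 and −0.74, so the arrays differed there. Pseudogenes and copies of both genes may share the signal.

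PPIA is cyclophilin A, a prolyl isomerase often taken as a reference gene. It gave −1.26 and −0.62 (VM_H300010297, chromosome 7, mean −0.94 ± 0.46). TBCA, a chaperone of tubulin folding, gave −1.14 and −0.61 (VM_H200003455, chromosome 5, mean −0.87 ± 0.38). Both were nearer to 1.5-fold on ECT array 2 than on ECT array 1. NQO1, a quinone reductase under control of the oxidative stress factor NRF2, gave −0.90 and −0.60 (VM_H300021553, chromosome 16, mean −0.75 ± 0.21). CASP9, the initiator caspase of the mitochondrial death pathway, gave −0.64 and −0.60 (VM_H300002897, chromosome 1, mean −0.62 ± 0.03). Its arrays were close but its spots ranged widely, from −1.11 to 0.02.

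CD28, a costimulatory receptor of T cells, gave −0.72 and −0.92 (VM_H300022863, chromosome 2, mean −0.82 ± 0.14). Cy3 intensity was 139 and 90.8 times the background in untreated melanoma cells, and of the other T cell markers CD8A was at 85.2 and 58.4 times, and CD2 and CD27 at 7.36 and 11.1 times on ECT array 1. CD2 gave −0.07 and −0.09, CD27 −0.03 and −0.06, and CD8A 0.05 and −0.06. The remaining 7 lymphoid marker genes, among them CD4, GZMB and PRF1, were not measured on both arrays. Background-subtracted intensity was also summed over all 11 lymphoid oligonucleotides on the array, measured or not. It came to 4055 units of Cy3 and 978 of Cy5 for the first array, and to 2303 and 838.0 for the second. What the CD28 oligonucleotide bound was not tested.

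**Figure D2:**
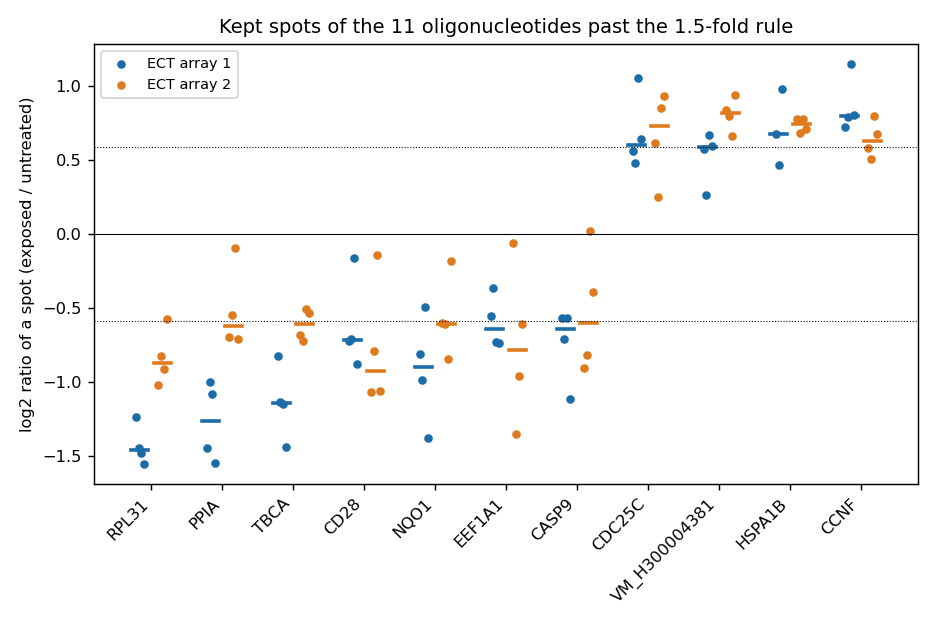
Log2 ratio (exposed over untreated, y axis) of every kept spot of the 11 oligonucleotides past the 1.5-fold rule, on ECT array 1 (blue) and ECT array 2 (orange), with bars at each array's median and dotted lines at 1.5-fold. Of 87 kept spots, 1 of CASP9 lies on the other side of 0, at 0.02, and RPL31 has the lowest spots.

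All 11 had an adjusted p of 0.291 in limma. Of the 11, 8 passed the adjusted threshold under each of the 4 settings named above that made 21 or more calls (HSPA1B, CCNF, VM_H300004381, PPIA, TBCA, CD28, NQO1 and EEF1A1), with 16 oligonucleotides passing all 4, 6 higher and 10 lower. In the deposited table only RPL31 passed (adjusted p = 0.041 in limma), and these 8 did not. Just outside the fold rule were CRABP2, a retinoic acid binding protein, at 0.66 and 0.58, the RB-binding histone chaperone RBBP4 at 0.91 and 0.57, and GLIPR1 at 0.80 and 0.55. On the lower side, the histone H4C16 stood at −0.88 and −0.55 and TFDP1, which pairs with E2F proteins, at −0.52 and −0.63. Some larger means rested mainly on ECT array 1. TNFSF4, the OX40 ligand, gave 1.41 and 0.44, the chromatin protein HMGB2 1.19 and 0.48, TTYH1 1.46 and 0.10, and CLEC3B 1.36 and 0.16. On the lower side RET, a receptor tyrosine kinase, gave −1.50 and −0.33 and HINT1 −1.60 and −0.07.

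In the heat shock list 11 of 17 measured oligonucleotides were above 0 on both arrays and 3 below, against 350 (29.8%) and 405 (34.4%) of the 1176. The same shares are the baseline for the counts above and below 0 in the lists that follow. The median log2 ratio of the heat shock list was 0.19, with 0.15 and 0.18 on the 2 arrays, beside a median of −0.02 over all. One member, HSPA1B, passed the fold rule, and 5 were higher and 1 lower at an unadjusted p under 0.05, against 5.36% and 7.82% of all. Beside HSPA1B, the highest were HSPA2, a testis-enriched HSP70, at 0.73 and 0.31, the cytosolic HSP90 gene HSP90AB1 at 0.77 and 0.24, and DNAJB1, the HSP40 partner of HSP70, at 0.61 and 0.36. SERPINH1, the collagen chaperone, gave 0.37 and 0.21. The cochaperones DNAJA1 (0.11 and 0.27) and ST13 (−0.10 and −0.10) were closer to 0. TRAP1 of mitochondria gave 0.10 and −0.13, HSPA5 of the endoplasmic reticulum 0.07 and 0.18, and the 2 oligonucleotides of HSP90B1 gave 0.05 and 0.00, and 0.63 and −0.13. Of the lower members, HSF4, a heat shock factor of the lens, gave −0.93 and −0.19. HSPB2 was seen in Cy3 at 10.6 and 4.22 times the background and was not well above background in Cy5 on either array. The same held for a second HSPA5 oligonucleotide, VM_H300000330, at 5.61 and 2.77 times in Cy3 and 1.74 and 1.64 in Cy5.

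The list of the unfolded protein response, which answers misfolding in the endoplasmic reticulum, had 6 of 8 oligonucleotides above 0 on both arrays and 0 below, at a median of 0.10, or −0.10 with median centring in place of loess. The values were small. CANX, a lectin chaperone, gave 0.33 and 0.07, XBP1 0.10 and 0.15, and ATF4 −0.07 and 0.01, and none passed the fold rule or an unadjusted p of 0.05.

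**Figure D3:**
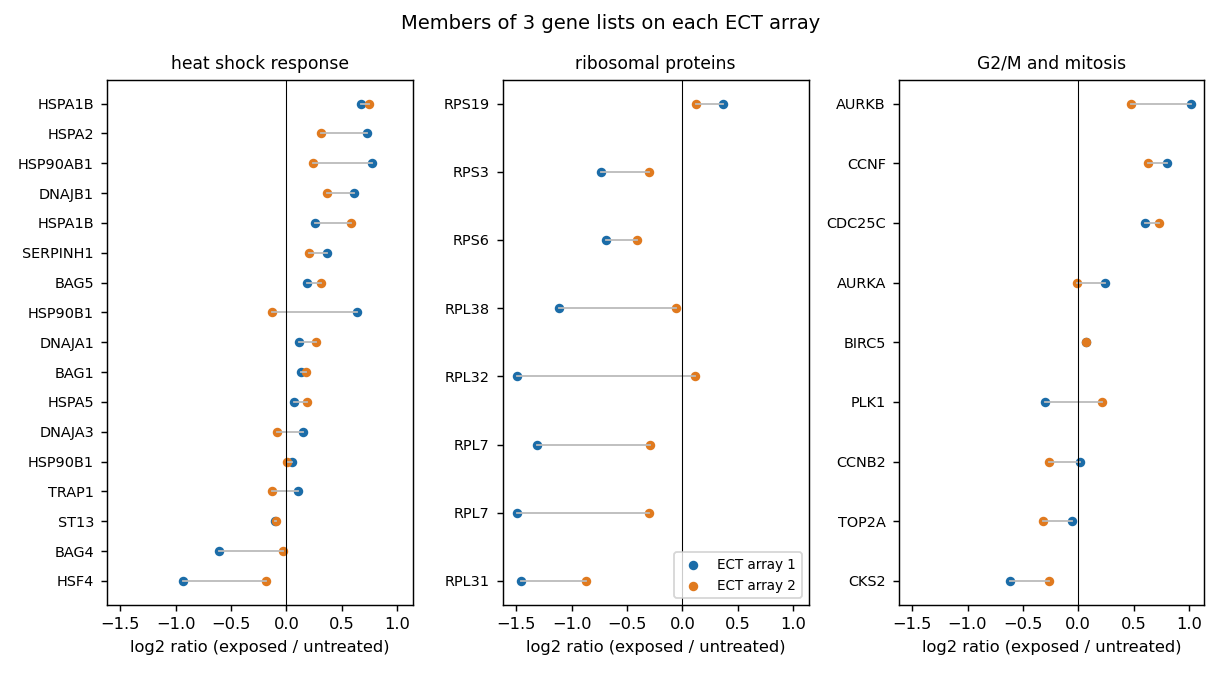
Log2 ratio (exposed over untreated, x axis) of each measured oligonucleotide of the heat shock, ribosomal protein and G2/M lists on ECT array 1 (blue) and ECT array 2 (orange), joined by a line and ordered by the mean. Ribosomal proteins lie far lower on ECT array 1 than on ECT array 2, with medians of −1.21 and −0.29, and the heat shock medians are 0.15 and 0.18.

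Of 8 ribosomal protein oligonucleotides, 6 were below 0 on both arrays and 1 above, at a median of −0.64. The size differed between the arrays, with a median of −1.21 on ECT array 1 and −0.29 on ECT array 2. The 2 oligonucleotides of RPL7 gave −1.50 and −0.30, and −1.31 and −0.29. RPS6, a protein of the small subunit phosphorylated upon growth signals, gave −0.69 and −0.41. RPS3, which also acts in DNA repair, gave −0.74 and −0.30. RPL38 gave −1.12 and −0.06, and RPL32 −1.49 and 0.11, so these were low on ECT array 1 alone. RPS19 went the other way, at 0.36 and 0.12. The start of RPS19 printed above also carries the pyrimidine run, so the 7 genes with that start were not all lower.

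Translation factors had no common direction, with 2 of 8 above 0 on both arrays, 3 below and a median of −0.10, or 0.05 with no spot filter. TPT1, a growth-related protein whose mRNA is of the TOP kind, gave −1.42 and −0.02. The scaffold EIF4G1 gave 0.54 and 0.14 and EIF4G2, which supports translation without a cap, 0.86 and 0.24. The helicase EIF4A1 gave −0.21 and 0.20.

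Of 9 G2/M oligonucleotides, 4 were above 0 on both arrays and 2 below, at a median of 0.07 and 0.07 on each array, or −0.03 in the deposited table of the authors' normalized ratios. The list divided. AURKB, the kinase of the chromosomal passenger complex, gave 1.01 and 0.48 beside CCNF and CDC25C. BIRC5 (survivin), of the same complex, gave 0.07 and 0.07. CKS2, a CDK subunit, was lower on both, at −0.61 and −0.27, and TOP2A, the topoisomerase of dividing cells, gave −0.06 and −0.32. Of 27 genes of the list on the array 18 were not measured on both, CDK1, CCNB1 and CDC20 among them.

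In the G1/S, RB and E2F list 13 of 27 oligonucleotides were above 0 on both arrays and 7 below, at a median of 0.04. RBBP4 gave the highest values. E2F3, an activating E2F, gave 0.87 and 0.31, cyclin D1 (CCND1) 0.86 and 0.22, and the pocket protein RBL2 0.72 and 0.37. The 2 oligonucleotides of RB1 disagreed, at 0.36 and 0.24 for one and −0.41 and 0.15 for the other. The 5 histone oligonucleotides had a median of −0.11, or 0.07 with median centring, with H3-3A at −0.67 and −0.33. The 4 oligonucleotides of H4C16 ranged in mean from −0.71 to 0.04, and histone H4 genes have near-identical copies.

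Of 13 oligonucleotides of oxidative stress genes, 7 were below 0 on both arrays and 2 above. The median of their means was −0.27, but the median was only −0.12 on ECT array 1 and −0.09 on ECT array 2. Under the alternative settings the median of the means ran from −0.38 to −0.07. At an unadjusted p under 0.05, 5 were lower and 0 higher, against 7.82% and 5.36% of all oligonucleotides. Beside NQO1, the glutathione transferases GSTP1 (−0.83 and −0.44) and GSTM4 (−0.43 and −0.65) and the quinone oxidoreductase TP53I3 (−0.71 and −0.25) were lower on both. A second TP53I3 oligonucleotide, VM_H300018995, lay nearer to 0, at −0.12 and −0.07. GSTM3 (0.34 and 0.22) and GSTZ1 (0.28 and 0.26) were higher on both. SOD1, the cytosolic superoxide dismutase, gave −0.69 and 0.09. HMOX1, NFE2L2 and SOD2 were not measured on both arrays.

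Proteasome and ubiquitin oligonucleotides had a median of −0.20, with −0.31 on ECT array 1 and −0.08 on ECT array 2. Of 18, 9 were below 0 on both arrays and 3 above. The core subunits PSMB3 (−0.89 and −0.22), PSMB1 (−0.62 and −0.23) and PSMB4 (−0.49 and −0.28) were lower, and PSMD1 of the regulatory particle gave 0.33 and 0.16. UBB, a polyubiquitin gene, gave −1.20 and −0.10, and the ubiquitin-like modifier NEDD8 0.21 and 0.32.

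**Figure D4:**
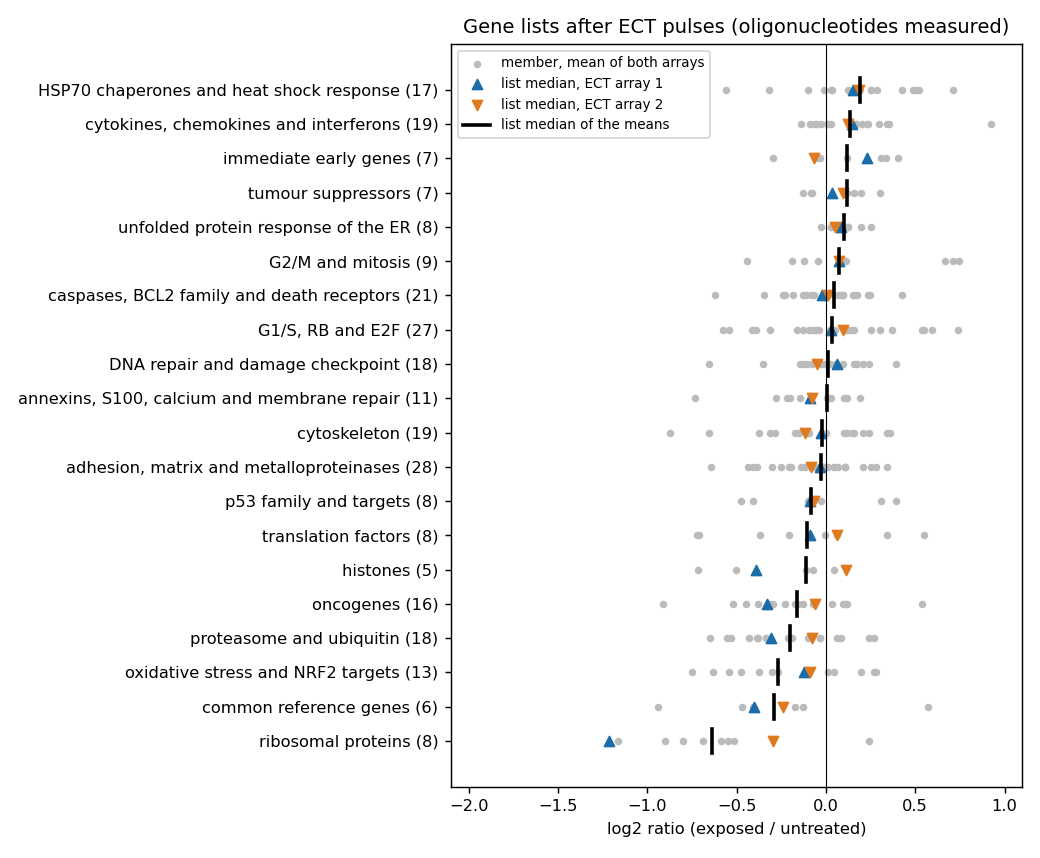
Log2 ratio (exposed over untreated, x axis) of 20 gene lists, with the number of oligonucleotides measured in parentheses, grey points for members' means, triangles for the list median on each ECT array and a bar for the median of the means. Ribosomal proteins lie lowest at −0.64 and heat shock genes highest at 0.19.

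Of 19 cytokine oligonucleotides, 11 were above 0 on both arrays and 2 below (29.8% and 34.4% of all oligonucleotides), at a median of 0.13. TNFSF4 stood apart. The interferon IFNB1 gave 0.15 and 0.56, the receptor antagonist IL1RN 0.35 and 0.34, and the inflammatory cytokine IL6 0.34 and 0.26. The IL6 value depended on the processing, since its 4 spots on ECT array 1 had an SD of 2.11 and the deposited table held 1.35 and 0.62, past the fold rule. Immediate early genes, the first to answer growth and stress signals, had a median of 0.12, with 0.23 on ECT array 1, −0.07 on ECT array 2 and −0.17 after median centring. EGR1 gave 0.31 and 0.31, JUND 0.36 and 0.45, and FOSL1 −0.19 and −0.41. JUN and MYC were not measured on both arrays.

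Genes of cell death were near 0, at a median of 0.04, with 6 of 21 oligonucleotides above 0 on both arrays and 6 below. CASP9 was the one past the fold rule. BIRC2, an inhibitor of apoptosis, gave 0.48 and 0.37, APAF1, which activates CASP9, 0.30 and 0.19, and XIAP, which inhibits it, −0.02 and 0.04. DNA repair genes had a median of 0.01, with 7 of 18 above and 6 below on both arrays. RPA3 of the single-strand binding complex gave −0.93 and −0.38 and its partner RPA2 −0.04 and 0.04, and the nuclease ERCC4 0.53 and 0.25. Genes of the p53 family and its targets had a median of −0.08, or 0.07 with median centring. TP73 gave −0.52 and −0.29, the phosphatase PPM1D 0.54 and 0.24, and CDKN1A and GADD45A were not measured on both arrays.

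Tumour suppressors had a median of 0.12, with 4 of 7 above 0 on both arrays and 1 below. NF1, which restrains RAS, gave 0.03 and 0.36. Oncogenes had a median of −0.17, with 10 of 16 below and 4 above. Beside RET, HMGA1, a chromatin protein, gave −0.36 and −0.68 and the receptor ERBB3 −0.38 and −0.38, while WNT1 gave 0.08 and −0.01. No oligonucleotide of either list passed the fold rule.

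Of 11 oligonucleotides of annexins, S100 and calcium proteins, 5 were below 0 on both arrays and 1 above. Their median was 0.00, with −0.09 and −0.08 on the 2 arrays, and its sign held in 4 of 10 alternative settings, with S100B at −1.14 and −0.33 and the calcium pump ATP2A2 at 0.02 and −0.02. The cytoskeleton list had a median of −0.02. Of its 19 oligonucleotides 5 were lower and 2 higher at an unadjusted p under 0.05, against 7.82% and 5.36% of all. TBCA and the myosin light chain MYL12A (−0.87 and −0.44) were lower, and ACTA2 gave 0.42 and 0.29. Adhesion and matrix oligonucleotides had a median of −0.03. The integrin ITGB4 gave −0.86 and −0.43, and CDH2, the cadherin of mesenchymal cells, 0.29 and 0.21.

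The melanocyte markers had a median of −0.06, with 2 of 11 above 0 on both arrays and 6 below. At an unadjusted p under 0.05, 3 were lower (against 7.82% of all oligonucleotides) and 0 higher, namely CD63, S100B (−1.14 and −0.33) and ERBB3 (−0.38 and −0.38). TYR, the first enzyme of melanin synthesis, gave 0.00 and −0.13, MLANA −0.17 and −0.24, SOX10 0.00 and −0.06, and MITF 0.08 and 0.19. TYRP1 gave 0.58 and 0.12. CD63, a melanosome and exosome tetraspanin, was low on ECT array 1 in particular, at −1.10 and −0.38. Markers of myeloid, epithelial and fibroblast or endothelial cells had medians of −0.02, 0.11 and 0.00. Genes often used as references did not share a level. PPIA was lowest, GAPDH gave −0.68 and −0.27, B2M −0.91 and 0.09, ACTB −0.13 and −0.22, LDHA 0.14 and −0.39, and YWHAZ 0.96 and 0.19.

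The spread between the arrays differed with brightness in the reported setting, which added an offset of 50 to both channels. Such an offset pulls the ratios of dim spots toward 0, and its part in the values below was not tested. When the 1176 oligonucleotides were cut by brightness into 4 groups of 294, from the dimmest to the brightest, the mean SD between arrays was 0.11, 0.17, 0.24 and 0.18, and the share with the same sign on both arrays was 65.0%, 63.3%, 63.3% and 65.3%. Of the 11 past the fold rule, 8 fell in the third group. For 32 genes with several measured oligonucleotides, 19 had means of one sign and 13 of different signs, and the median gap between the highest and lowest mean was 0.23. Both HSPA1B, both EEF1A1 and both RPL7 oligonucleotides had means of the same sign.

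On both arrays 41 were detected in Cy3 and not well above background in Cy5, and 0 the other way round. Median Cy5 intensity was the lower one on both arrays. Beside HSPB2 and the second HSPA5 oligonucleotide, one was POLD1, the catalytic subunit of DNA polymerase delta. It stood at 7.24 and 2.75 times the background in Cy3 and 1.78 and 1.43 in Cy5. No fold was computed for them.

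ECT pulses were set beside EGT pulses, which are longer and weaker, by the difference between their mean log2 ratios in limma over the 1164 oligonucleotides measured on all 4 arrays. None passed (0%), the smallest adjusted p was 0.998, and 24 (2.06%) had an unadjusted p under 0.05. The paper describes the same untreated cells as the control of both pulse types, and whether the arrays shared untreated RNA is not stated. EGT array 1 had 4 spots of a local background over 1000 that shrank its log2 ratios (median absolute deviation 0.03 with and 0.18 without them). Without these spots 0 passed and 31 (2.66%) had an unadjusted p under 0.05, and the EGT values given next are without them.

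HSPA1B gave 0.52 and 0.69 after EGT pulses, CCNF 0.67 and 0.83, CDC25C 0.66 and 1.08, and VM_H300004381 0.55 and 0.50. These 4 were thus higher on all 4 arrays. RPL31 was lower on all, at −0.76 and −1.27 after EGT pulses, and so was CD28, at −0.92 and −0.58. The share of all oligonucleotides with the same sign on all 4 arrays is not given here. NQO1 gave −0.03 and −0.22 after EGT pulses, nearer to 0 than on either ECT array, yet its difference of −0.63, or −0.63 without the 4 spots, had an adjusted p of 0.998 and 0.988. The remaining 4 lay between −1.27 and −0.16 after EGT pulses. A p that misses the threshold does not show that the pulse types act alike.

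**Figure D5:**
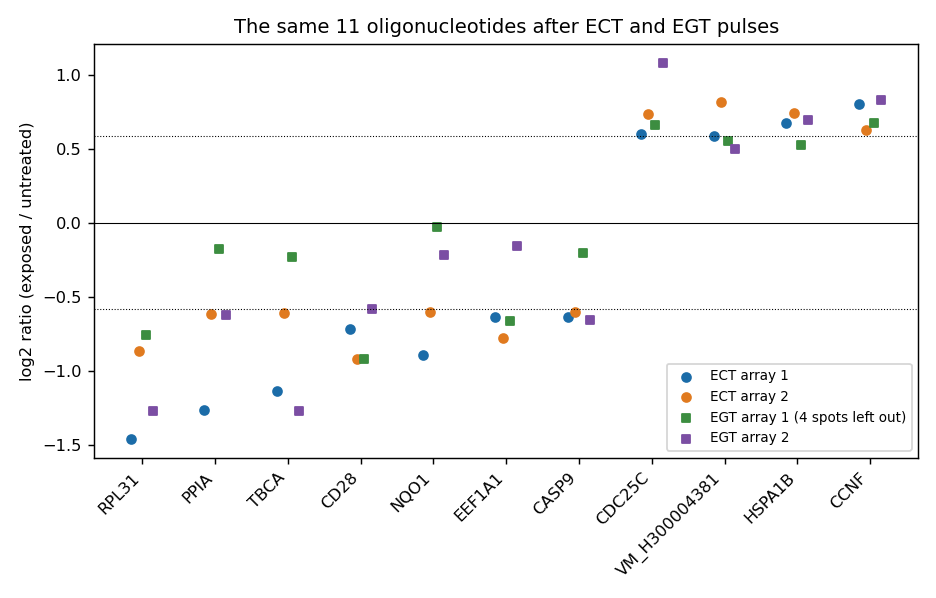
Log2 ratio (exposed over untreated, y axis) of the 11 oligonucleotides on the 2 ECT arrays (circles) and the 2 EGT arrays (squares), with 4 spots of high background left out of EGT array 1 and dotted lines at 1.5-fold. The 4 higher oligonucleotides lie at 0.50 or above on all 4 arrays, whereas NQO1 lies at −0.22 and −0.03 on the EGT arrays.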

How the data were processed

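The 4 arrays were scanned and quantified by the authors, who deposited for each spot the median intensity and local background of each channel on a linear scale, neither subtracted nor normalized. The deposited table of the authors' normalized log2 ratios (exposed over untreated) was used as an alternative; its centring is not given in the sources used here. Channels were assigned to dyes by the labels, and the log2 ratios from the spots correlated with that table at 0.963 and 0.931 on the 2 ECT arrays.

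The limma package (3.58.1, R 4.3.3) was used to correct background by normexp (offset 50) and ratios by loess (span 0.3, 4 iterations). A kept spot had 2 times the local background or more and at most 65000 in each channel, with a background SD of at most 0.3 of the intensity. The median of at least 2 kept spots was taken. The 2 ECT arrays were tested with lmFit and eBayes, and ECT minus EGT over 4 arrays, with Benjamini-Hochberg adjustment. The 1.5-fold rule follows the study's methods and is a count, not a test. The number of arrays limits the precision. The steps were tested on simulated data.

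Symbols came from the array annotation (1989 of 3048 oligonucleotides, 0 changed against RefSeq GRCh38.p14). Named were oligonucleotides past the rule, the 8 highest and 8 lowest others of the same sign on both arrays, up to 3 extreme members and the member nearest 0 of each list, further oligonucleotides of genes past the rule, and reference, melanocyte and lymphoid genes. Other list members and the oligonucleotides just outside the rule or seen in 1 channel were chosen after their values were seen. The members and lists were chosen with earlier results of these data known. Samples with the same array number deviated in opposite directions (r = −0.46), so the numbers were not taken as pairs.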

Additional observations from a re-analysis of the deposited data

Results flagged for a closer look

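For 4 named oligonucleotides both ECT arrays lay on one side of 0 and both EGT arrays on the other. The share of the 1164 oligonucleotides measured on all 4 arrays that split this way is not given here. Whether 4 is many can therefore not be judged. ECT minus EGT was −0.32 for MLANA, a melanosome antigen (−0.17 and −0.24 after ECT pulses, 0.01 and 0.22 after EGT pulses), −0.26 for PEF1, a calcium-binding protein (−0.41 and −0.03, 0.05 and 0.03), −0.049 for CD27 (−0.03 and −0.06, 0.00 and 0.01) and 0.13 for HSPA5 (0.07 and 0.18, both 0.00 after EGT pulses). In limma each difference had an adjusted p of 0.998. Without the 4 spots of high background EGT array 1 moved to 0.09, 0.32, 0.03 and 0.13, and HSPA5 was then no longer on opposite sides. No group held enough arrays for a search for single deviating arrays.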

How the results depend on the processing

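For ECT pulses limma called 0 of 1176 oligonucleotides in the reported setting, 21 with no background correction, 23 with background subtracted, 66 of the 915 tested with spots of at least 3 times background, 37 with an intensity trend and robust prior and 1 (RPL31) of the 1266 in the deposited table of normalized log2 ratios, and 0 with every other alternative run. The 4 oligonucleotides at least 1.5-fold higher on both arrays became 7 with no background correction, 10 with subtraction, 2 with median centring and 7 in the deposited table. The 7 lower ones became 17, 31 and 4 with subtraction, median centring and the mean of spots. With no spot filter 3048 were measured and the mean SD between arrays was 0.107. The cause was not tested, except that median centring leaves the dependence of ratios on intensity in place and fewer or more spots change what is tested.

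Leaving out each ECT array in turn gave 0 and 0 calls, with the spread of the lone array assumed to be that of the EGT arrays, 9 to 44 oligonucleotides at least 1.5-fold higher, 18 to 89 lower and 1208 to 1478 measured. With 1 array there is no SD between arrays. All 11 past the fold rule kept their sign in each of the 10 alternatives that measured them (RPL31 had no value at 3 times background), and between 7 and 11 stayed past it. Of 1270 values of named oligonucleotides under the alternatives, 1146 moved by no more than the SD between the arrays, 124 by more and 0 of the 11 reversed. These values include those with each ECT array left out. With 2 arrays, a lone array always lies within that SD of their mean. Those values could therefore count neither as moved nor, for the 11, as reversed. The heat shock (0.08 to 0.28) and ribosomal (−0.95 to −0.57) medians kept their sign in all 10, whereas translation factors went from −0.19 to 0.05, G2/M from −0.03 to 0.10, immediate early genes from −0.17 to 0.15 and the unfolded protein response from −0.10 to 0.14.

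For ECT against EGT, 0 passed with the array number as a replicate block (10 at an unadjusted p under 0.05), and 0 in each other alternative, also when each array was left out. The block with crossed array numbers, added after seeing the data, gave 0 calls and 57 at an unadjusted p under 0.05. Dim Cy5 signal limits what could be measured.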
